A study of Mus musculus with 8 samples.

Results

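The genes described here encode the endosomal proteases of antigen processing and their partners: the cathepsins Ctss, Ctsl, Ctsb, Ctsd, Ctsh, Ctsz and Ctsc, the asparaginyl endopeptidase legumain (Lgmn), the thiol reductase GILT (Ifi30) and the protease inhibitor cystatin C (Cst3). They were chosen by symbol, and all 10 were found among 19938 genes measured as a single symbol, each through 1 probe set. Gene expression had been measured on 8 arrays of XCR1+ dendritic cells, the conventional dendritic cells that cross-present antigen to CD8 T cells. The cells came from spleens of untreated mice with a yellow fluorescent reporter in the Il12b locus, which every group shares. The sort kept cells without lineage markers, with no or low Bst2, high CD11c and CD8α. It gave an immature group without CCR7 and without reporter (n = 3), a CCR7+ group without reporter, written CCR7+Il12b- (n = 3), and a CCR7+ group with reporter, written CCR7+Il12b+ (n = 2). The series title names the purpose, a maturation that part of these cells undergo in the steady state. The sources used here do not give age, sex, strain background or whether a sample pooled several mice. Nor do they say that replicates were different mice, and the spread behind the p-values could therefore be technical.

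Class II molecules leave the endoplasmic reticulum with their peptide groove blocked by the invariant chain, which endosomal proteases cut away stepwise. Legumain can begin such cuts and also activates other proteases, cathepsin S makes the late cut in dendritic cells, and cathepsin L has that role in the thymic cortex. GILT opens disulfide bonds of internalised proteins, and the remaining cathepsins trim chain ends or cut internally as antigens are broken down. Cystatin C, which inhibits cysteine cathepsins, is abundant in the conventional dendritic cells that carry CD8α.

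Expression values are log2 values on which 1 unit is a 2-fold difference. All 10 genes had group means above a background mark of 4.98, which 95% of 1194 genes for olfactory or vomeronasal receptors lay under, so changes of these 10 were measured on both sides. Array medians lay between 5.25 and 5.46. Ccr7, which the sort used, followed the labels, at 8.50 to 8.86 in immature samples and at 12.20 to 12.77 in the CCR7+ samples. Il12b, whose reporter the sort used, stood at 6.88 to 7.11 in immature samples. It was already at 10.77 to 10.84 in CCR7+Il12b- samples, and at 12.35 and 12.22 in CCR7+Il12b+ samples. The name CCR7+Il12b- thus refers to the reporter and not to an absence of Il12b RNA. All 15 XCR1+ dendritic cell markers examined had means above the background mark in each group, but most were lower in the matured groups. In CCR7+Il12b- cells 8 fell and 2 rose (adjusted p under 0.05 in limma), and in CCR7+Il12b+ cells 11 fell and 2 rose. The falls are 53.3% and 73.3% of the list, beside 14.5% and 17.9% of all genes. The rises, 13.3% each time, compare with 9.10% and 14.1%. The 15 markers summed on the linear scale gave 23381 to 25082, then 16080 to 19246, then 11810 to 13371. Xcr1 itself was at 10.82 to 10.98, then 8.94 to 9.85, then 7.64 and 8.12. CCR7+Il12b- replicate 3 stood apart in Xcr1 (8.94, against 9.85 and 9.83) toward the CCR7+Il12b+ samples. It did so too in Tlr3 (6.95, against 8.22 and 8.51), Naaa (9.06, against 10.12 and 10.34), Cd68 (8.49, against 9.37 and 9.39) and H2-DMa (9.18, against 9.87 and 9.99). Not every marker went that way, as Flt3 was at 10.51, against 10.67 and 10.79, with 10.88 and 10.66 in CCR7+Il12b+ samples. Group means of the former genes in CCR7+Il12b- cells thus depend partly on this replicate. Among the 10 genes that replicate was the nearest of its group to the CCR7+Il12b+ mean for 5, and results that changed without it are named. In bulk samples fewer cells expressing a gene and less RNA per cell cannot be told apart. The labels give an RNA input of 3 or 20 ng without saying which sample had which, so input and group cannot be told apart.

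In CCR7+Il12b- cells 4 of the 10 genes rose against immature cells and 0 fell. Lgmn, Ifi30, Ctsz and Ctsh were the 4, in a comparison in which 9.10% of all genes tested were called higher and 14.5% lower (adjusted p under 0.05 in limma). The count of lower genes was also 0 at an unadjusted p under 0.05. In CCR7+Il12b+ cells 5 of 10 rose, the same 4 genes and Ctsd, and Ctsc and Ctsl fell, beside 14.1% of all genes called higher and 17.9% called lower. Between the matured groups Lgmn was higher and Ctsc lower in CCR7+Il12b+ cells, against a background of 2.61% and 4.47% of all genes. The median change of the 10 genes was 0.10, 0.28 and 0.14 in these comparisons, where the medians of all genes were 0.06, 0.09 and 0.02. Both comparisons with immature cells share the immature samples.

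**Figure D1:**
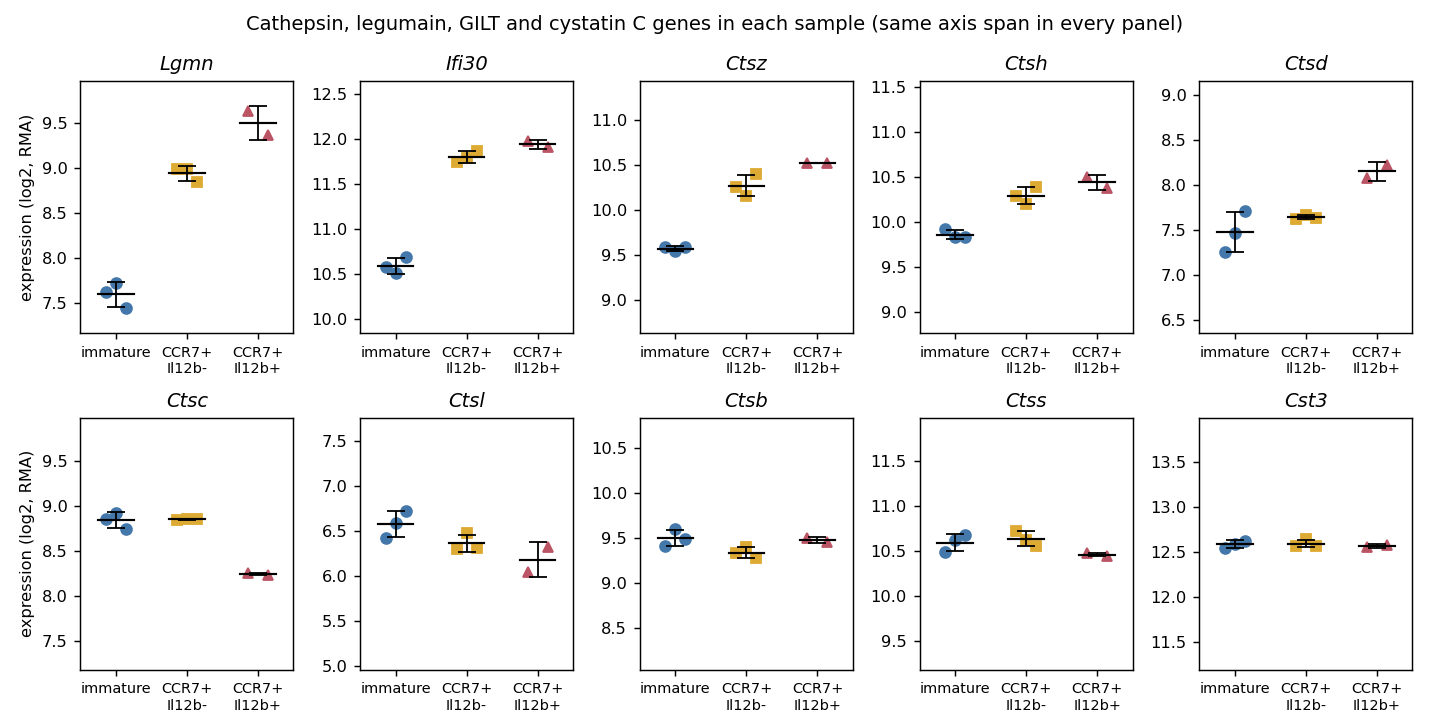
Expression (log2, RMA) of each of the 10 genes by group, with 1 point per sample, the mean as a horizontal line and ± SD as bars (n = 3 immature, 3 CCR7+Il12b- and 2 CCR7+Il12b+), all panels spanning the same number of log2 units. Lgmn, Ifi30, Ctsz and Ctsh step up from immature to CCR7+Il12b- samples without overlap, Ctsc is lower in the CCR7+Il12b+ samples alone, and Cst3 stays between 12.54 and 12.64 in all 8 samples.

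The bases before the start sites of 4 genes are printed to show what lies upstream of genes that rose in both matured groups (Ifi30, Lgmn), in the reporter-positive group alone (Ctsd) and in neither (Ctss). They are RefSeq sequences of the build GRCm38.p6, 250 bases up to the base before the gene's start, in the gene's own direction. Ifi30 lies on the minus strand at chr8:70766664-70766913, Lgmn on the minus strand at chr12:102439729-102439978, Ctsd on the minus strand at chr7:142387828-142388077 and Ctss on the plus strand at chr3:95526536-95526785. Capitals mark matches to the motifs searched on both strands.
Ifi30: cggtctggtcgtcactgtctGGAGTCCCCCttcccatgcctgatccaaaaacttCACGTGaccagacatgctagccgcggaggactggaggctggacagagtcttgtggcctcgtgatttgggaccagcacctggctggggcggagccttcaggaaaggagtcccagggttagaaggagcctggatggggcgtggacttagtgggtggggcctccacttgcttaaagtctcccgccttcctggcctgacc
Lgmn: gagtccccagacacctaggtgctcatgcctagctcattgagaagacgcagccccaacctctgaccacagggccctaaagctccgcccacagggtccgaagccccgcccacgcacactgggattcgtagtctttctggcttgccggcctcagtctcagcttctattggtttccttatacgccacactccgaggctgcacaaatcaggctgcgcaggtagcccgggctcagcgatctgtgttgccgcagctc
Ctsd: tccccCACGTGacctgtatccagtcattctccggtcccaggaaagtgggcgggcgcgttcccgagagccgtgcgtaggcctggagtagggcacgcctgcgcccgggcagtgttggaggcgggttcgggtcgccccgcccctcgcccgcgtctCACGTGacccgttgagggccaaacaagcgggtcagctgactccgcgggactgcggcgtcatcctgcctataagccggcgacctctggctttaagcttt
Ctss: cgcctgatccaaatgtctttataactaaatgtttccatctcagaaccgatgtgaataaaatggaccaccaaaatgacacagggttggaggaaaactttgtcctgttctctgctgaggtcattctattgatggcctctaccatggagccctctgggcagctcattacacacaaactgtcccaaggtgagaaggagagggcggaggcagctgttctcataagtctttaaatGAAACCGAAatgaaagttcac

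The motifs were the E-box CACGTG, which reads the same on both strands and forms the core of the element that TFEB binds in lysosomal genes, the interferon-type repeat GAAANNGAA, the gamma-activated site TTCNNNGAA and the NF-kB motif. Windows of 300 bases, which add the 50 bases after the start, were searched for 9 start sites of 8 of the genes, while Ctsb and Ctsh were not analysed here in this respect. The E-box was found in windows of 4 genes, and 7.15% of 32851 RefSeq windows of that length held it. Ctsd had matches at -245 and -98 from its start and Ifi30 at -196. Those of Lgmn and Ctsl lay at other start sites inside the gene, at -49 and -236. An NF-kB match lay at -230 in Ifi30 and at -210 of the inner Lgmn start, beside 4.51% of all windows. The interferon-type repeat was found in Ctss alone, at -21 (8.56% of all windows). The gamma-activated site was found in Ctsc alone (8.30%), at -236 of a start site that also lay inside the gene. The Lgmn stretch printed above held no match. No 2 of these matches overlapped. A match says only that these letters are present.

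Legumain showed the largest rise. Lgmn stood at 7.62, 7.72 and 7.45 (log2) in the immature samples, at 8.99, 8.99 and 8.85 in the CCR7+Il12b- samples and at 9.63 and 9.37 in the CCR7+Il12b+ samples. The groups did not overlap at either step. Against immature cells the increase was 2.54-fold in CCR7+Il12b- cells (log2 change 1.34 ± 0.12 SE, adjusted p = 1.58e-05 in limma) and 3.73-fold in CCR7+Il12b+ cells (1.90 ± 0.13, adjusted p = 1.18e-06). Both rises kept their call under all 17 alternatives. The matured groups differed by 1.47-fold (0.56 ± 0.13, adjusted p = 0.0276 in limma). That call ended without CCR7+Il12b- replicate 1, 2 or 3 (adjusted p = 0.0582, 0.0699 and 0.0544), without CCR7+Il12b+ replicate 1 (0.170), with array weights (0.0725) and in a fit on the compared groups alone (0.0624).

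Ifi30 was the other gene that more than doubled in both matured groups. Its immature values were 10.57, 10.51 and 10.69 (log2). They were 11.74, 11.78 and 11.87 in CCR7+Il12b- samples and 11.97 and 11.91 in CCR7+Il12b+ samples. All matured samples lay more than the immature range above the highest immature value. The rises were 2.31-fold (1.21 ± 0.10 SE, adjusted p = 1.11e-05 in limma) and 2.55-fold (1.35 ± 0.11, adjusted p = 4.29e-06). Between the matured groups the 2 samples with reporter were above the 3 without, yet the difference of 0.14 had a 95% interval from -0.11 to 0.39 and was not called (adjusted p = 0.612).

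The late-acting endopeptidase of dendritic cells did not follow them. Ctss stood at 10.48, 10.61 and 10.67 (log2) in immature, 10.72, 10.62 and 10.55 in CCR7+Il12b- and 10.47 and 10.44 in CCR7+Il12b+ samples. The first 2 groups overlapped, and the CCR7+Il12b+ samples lay just below all others. The log2 changes against immature cells were 0.04 (95% interval -0.18 to 0.27, adjusted p = 0.808 in limma) and -0.13 (-0.38 to 0.12, adjusted p = 0.411). A change of 1.5-fold in either direction lies outside both intervals. Between the matured groups the difference was -0.17 (-0.43 to 0.08, adjusted p = 0.506).

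Ctsl, the endopeptidase with the thymic role, had immature values of 6.43, 6.59 and 6.72 (log2). CCR7+Il12b- samples were at 6.30, 6.47 and 6.31, and CCR7+Il12b+ samples at 6.05 and 6.32. The group means went down at both steps, and the CCR7+Il12b+ samples lay below the immature ones. The fall in CCR7+Il12b+ cells was 1.32-fold (-0.40 ± 0.13 SE, adjusted p = 0.0440 in limma), while CCR7+Il12b- cells differed by -0.21 ± 0.12 (adjusted p = 0.244). The call in CCR7+Il12b+ cells ended without immature replicate 2 (adjusted p = 0.110) or 3 (0.151), CCR7+Il12b- replicate 1 (0.0539), CCR7+Il12b- replicate 2 (0.0548) or CCR7+Il12b+ replicate 1 (0.225). It also ended after quantile (0.248) or cyclic loess normalization (0.0737) and in a fit on the compared groups (0.0611).

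Among the cathepsins that trim chain ends, Ctsz and Ctsh went one way and Ctsc the other. Ctsz, a carboxypeptidase, stood at 9.59, 9.55 and 9.59 (log2) in immature samples, at 10.27, 10.16 and 10.40 in CCR7+Il12b- samples and at 10.53 and 10.53 in CCR7+Il12b+ samples. None of the 3 groups overlapped. It rose 1.62-fold in CCR7+Il12b- cells (0.70 ± 0.10 SE, adjusted p = 0.000524 in limma) and 1.93-fold in CCR7+Il12b+ cells (0.95 ± 0.11, adjusted p = 6.27e-05). The difference between the matured groups was 0.25 (95% interval 0.00 to 0.50, adjusted p = 0.270) and was not called.

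Ctsh, mainly an aminopeptidase, had immature values of 9.92, 9.83 and 9.83 (log2), CCR7+Il12b- values of 10.29, 10.20 and 10.39 and CCR7+Il12b+ values of 10.50 and 10.38. Every matured sample was above every immature one, while the matured groups overlapped. The rises were 1.35-fold (0.43 ± 0.10 SE, adjusted p = 0.00946 in limma) and 1.49-fold (0.58 ± 0.11, adjusted p = 0.00212). The matured groups differed by 0.15 (95% interval -0.10 to 0.40, adjusted p = 0.596).

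Ctsc encodes dipeptidyl peptidase I, known for activating granzymes and neutrophil serine proteases. It stood at 8.85, 8.92 and 8.74 (log2) in immature samples and at 8.84, 8.86 and 8.85 in CCR7+Il12b- samples, which lay within the immature range. Both CCR7+Il12b+ samples were lower, at 8.25 and 8.23. The fall was 1.51-fold against immature cells (-0.60 ± 0.11 SE, adjusted p = 0.00129 in limma) and 1.53-fold against CCR7+Il12b- cells (-0.61 ± 0.11, adjusted p = 0.00691). CCR7+Il12b- and immature cells differed by 0.01 (95% interval -0.20 to 0.23, adjusted p = 0.947). Both falls kept their call under all 17 alternatives, with changes from -0.65 to -0.43 and from -0.63 to -0.57.

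Ctsb, which cuts internally and also removes dipeptides from the carboxyl end, had values of 9.42, 9.60 and 9.49 (log2) in immature, 9.33, 9.40 and 9.28 in CCR7+Il12b- and 9.51 and 9.46 in CCR7+Il12b+ samples. The CCR7+Il12b- samples were the lowest, below all other samples by a small margin. No comparison was called. The changes were -0.17 (95% interval -0.39 to 0.06, adjusted p = 0.280 in limma), -0.02 (-0.27 to 0.23, adjusted p = 0.909) and, between the matured groups, 0.15 (-0.10 to 0.39, adjusted p = 0.595).

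Ctsd, the aspartic protease of the set, cuts at other sites than the cysteine cathepsins and is not inhibited by cystatin C. Its immature samples were spread widely, at 7.26, 7.47 and 7.71 (log2), while CCR7+Il12b- samples were at 7.63, 7.67 and 7.64 and CCR7+Il12b+ samples at 8.08 and 8.23. The CCR7+Il12b- values lay within the immature range and the CCR7+Il12b+ values above all others. The rise in CCR7+Il12b+ cells was 1.60-fold (0.67 ± 0.14 SE, adjusted p = 0.00298 in limma), while CCR7+Il12b- cells differed by 0.17 ± 0.12 (adjusted p = 0.386). The difference between the matured groups, 0.51 ± 0.14, was just short of the threshold (adjusted p = 0.0532). It passed without immature replicate 1 (0.0347) or 3 (0.0441), after quantile (0.0322) or loess normalization (0.0341), after median centring (0.0433) and with dim genes left out (0.0473).

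Cst3, the inhibitor, varied least of the 10. Immature samples were at 12.54, 12.59 and 12.62 (log2), CCR7+Il12b- samples at 12.57, 12.64 and 12.57 and CCR7+Il12b+ samples at 12.55 and 12.58. All groups overlapped. The changes were 0.01 (95% interval -0.20 to 0.22, adjusted p = 0.963 in limma) and -0.02 (-0.25 to 0.21, adjusted p = 0.905) against immature cells and -0.03 (-0.26 to 0.20, adjusted p = 0.941) between the matured groups.

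**Figure D2:**
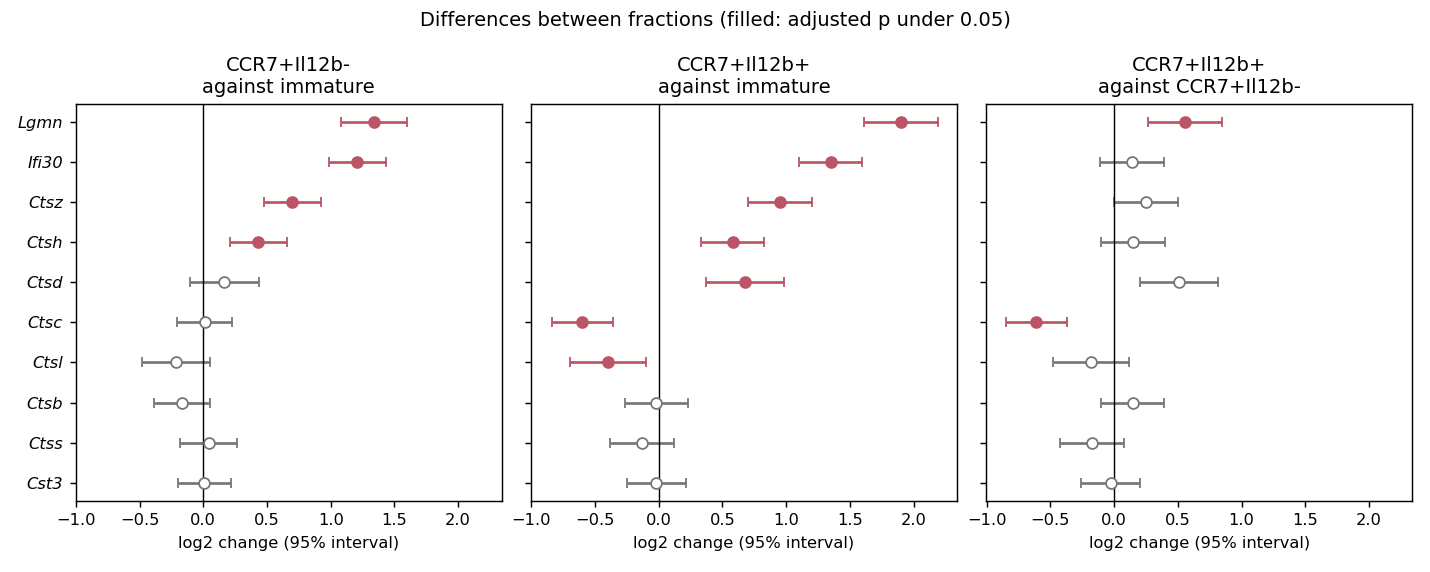
Log2 change of each of the 10 genes with its 95% interval in the 3 comparisons, with filled points at an adjusted p under 0.05 (limma, all genes). Lgmn lies farthest right in each panel, at 1.34, 1.90 and 0.56, and Ctsc is at 0.01 in the first panel and near -0.60 in the others.

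In order of group means, 5 genes (Lgmn, Ifi30, Ctsz, Ctsh and Ctsd) went up at both steps from immature through CCR7+Il12b- to CCR7+Il12b+ cells, and 1, Ctsl, went down at both. Of these 6 only Lgmn differed between the matured groups by the test (limma, all genes). The matured groups overlapped for Ctsh and Ctsl, and immature and CCR7+Il12b- samples for Ctsd and Ctsl. Ctss, Ctsb, Ctsc and Cst3 had no single direction.

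The genes with the most similar pattern over the 8 samples were taken for the largest rise and the largest fall, among 12924 other genes above background. For Lgmn they were Tyk2, a Janus kinase (Pearson r = 0.999), Zmynd15 (0.995) and Gpr137b-ps (0.995). For Ctsc they were Slfn5 (r = 0.980), Abcb1b, a drug efflux transporter (0.979), and Cxcl9, a ligand of CXCR3 (0.977). Slfn5 and Cxcl9 changed by 0.05 and 0.04 in CCR7+Il12b- cells and by -1.41 and -1.30 in CCR7+Il12b+ cells, against immature cells. The samples form 3 groups, so such r values mainly express the group means. The probes of Gpr137b-ps may also detect a closely related gene.

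Other genes of the pathway were read from 6 lists with 61 measured genes, of which 14 rose and 11 fell in CCR7+Il12b- cells. These are 23.0% and 18.0% of the 61, beside 9.10% and 14.5% of all genes. In CCR7+Il12b+ cells 20 rose and 17 fell (32.8% and 27.9%, beside 14.1% and 17.9% of all genes), and 5 were higher and 10 lower between the matured groups (8.20% and 16.4%, beside 2.61% and 4.47%). Their median changes were 0.13, 0.17 and 0.01. Without immature replicate 2 or 3 6 of the 11 falls kept their call. Of the 5 genes higher in CCR7+Il12b+ than in CCR7+Il12b- cells, 1 kept its call without CCR7+Il12b- replicate 2 or CCR7+Il12b+ replicate 1. Without CCR7+Il12b- replicate 3, 3 of the 5 kept it, and 2 did so without CCR7+Il12b+ replicate 2, where Stfa3 was called in addition.

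Of 13 other lysosomal peptidases 3 rose and 2 fell in CCR7+Il12b- cells, 2 rose and 3 fell in CCR7+Il12b+ cells, and 1 was higher and 2 lower in CCR7+Il12b+ than in CCR7+Il12b- cells. The 2 falls in CCR7+Il12b- cells and the 2 rises in CCR7+Il12b+ cells are each 15.4% of the list, near the 14.5% and 14.1% of all genes. List medians were 0.24, 0.07 and -0.07. Scpep1, a serine carboxypeptidase, rose by 0.84 ± 0.11 (log2, SE) and 1.68 ± 0.13 against immature cells, and Tpp1, a tripeptidyl peptidase, by 0.81 ± 0.09 and 1.09 ± 0.11. Ctsa, which protects other lysosomal enzymes, fell in CCR7+Il12b+ cells (-1.14 ± 0.16), as did Napsa, an aspartic protease (-1.49 ± 0.22). Both were also lower in CCR7+Il12b+ than in CCR7+Il12b- cells (-0.78 ± 0.16 and -1.31 ± 0.22), although Ctsa did not pass without CCR7+Il12b+ replicate 2 (adjusted p = 0.0876 in limma). Scpep1 was higher there (0.84 ± 0.13). Ctse, an aspartic protease, fell in CCR7+Il12b+ cells (-0.94 ± 0.19, adjusted p = 0.00219), a call kept under all 17 alternatives. It differed by -0.52 in CCR7+Il12b- cells, a call that ended without any 1 immature or CCR7+Il12b- sample (adjusted p from 0.0565 to 0.181). Ctsw, whose immature mean lay below background, was at least 1.02-fold higher, which did not hold without immature replicate 2 (0.0534) or CCR7+Il12b- replicate 1 (0.0546) or 3 (0.0584), or after quantile (0.0529) or loess normalization (0.0593).

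Protease inhibitors other than Cst3 rose more often than they fell. Of 10 measured, 3 rose and 0 fell in CCR7+Il12b- cells (0 also at an unadjusted p), beside 9.10% and 14.5% of all genes. In CCR7+Il12b+ cells 7 rose and 1 fell, beside 14.1% and 17.9%. The 1 fall, 10% of the list, was below the share of all genes. Between the matured groups 2 were higher and 0 lower (4 and 1 at an unadjusted p), beside 2.61% and 4.47%. List medians were 0.22, 0.997 and 0.30. In so short a list a count of 0 says little. Serpinb9, an inhibitor of granzyme B, rose by 2.09 ± 0.16 (log2, SE) and 2.66 ± 0.18, Serpinb1a, an inhibitor of neutrophil serine proteases, by 1.51 ± 0.17 and 1.82 ± 0.19, and Spint2, a serine protease inhibitor, by 1.38 ± 0.12 and 1.66 ± 0.13. These act mainly on serine proteases. Cstb, a stefin that inhibits cysteine cathepsins inside the cell, was at 9.14, 9.13 and 9.20 in immature, 9.77, 9.09 and 9.33 in CCR7+Il12b- and 10.31 and 10.09 in CCR7+Il12b+ samples. Its CCR7+Il12b+ samples lay above all others. Cstb rose in CCR7+Il12b+ against immature cells (1.04 ± 0.18). It was also higher there than in CCR7+Il12b- cells (0.80 ± 0.18, adjusted p = 0.0192 in limma), but not without CCR7+Il12b- replicate 2 (adjusted p = 0.0624), CCR7+Il12b+ replicate 1 (0.138) or 2 (0.0527), or in the fit on the compared groups (0.0573). Serpinb6a rose in CCR7+Il12b+ against immature cells (0.95 ± 0.16) and differed between the matured groups (0.66 ± 0.16). The latter call ended without CCR7+Il12b- replicate 2 or 3 or CCR7+Il12b+ replicate 1 (adjusted p = 0.0872, 0.0556 and 0.187), after loess normalization (0.0503) and in the fit on the compared groups (0.0638). Stfa3 was called in CCR7+Il12b+ cells with both group means below background, and not without immature replicate 3 (0.0509) or CCR7+Il12b+ replicate 1 (0.101) or after loess normalization (0.0514).

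In the list of class II molecules, chaperones and regulators, the falls in CCR7+Il12b- cells lay in chains of the chaperone and its inhibitor and in regulators, and not in the presenting chains measured. Of 10 measured, 1 rose and 5 fell in CCR7+Il12b- cells, beside 9.10% and 14.5% of all genes. In CCR7+Il12b+ cells 1 rose and 7 fell, beside 14.1% and 17.9%. The 1 rise, 10% of the list, was near the first share of all genes called higher and below the second. Between the matured groups 0 were higher (0 also at an unadjusted p) and 5 lower, beside 2.61% and 4.47%. List medians were -0.32, -1.04 and -0.54. The presenting chains H2-Aa, H2-Ab1 and H2-Eb1 and the invariant chain Cd74 differed from immature cells by 0.13, -0.07, -0.03 and 0.07 (log2) in CCR7+Il12b- cells, with none called (adjusted p from 0.399 to 0.875 in limma). In CCR7+Il12b+ cells H2-Aa and Cd74 were not called either (-0.04 and -0.06, adjusted p = 0.815 and 0.698 in limma), while H2-Ab1 fell (-0.55 ± 0.11, adjusted p = 0.00242). H2-Eb1 was just past the threshold there (-0.32 ± 0.11, adjusted p = 0.0493 in limma). That call was lost on leaving out any 1 sample except CCR7+Il12b+ replicate 1 (between 0.0515 and 0.277), with dim genes left out (0.0526), with array weights (0.0723) and in the fit on the compared groups (0.0743). H2-Ab1 was also lower in CCR7+Il12b+ than in CCR7+Il12b- cells (-0.48 ± 0.11). This was lost on leaving out CCR7+Il12b- replicate 1, CCR7+Il12b- replicate 2 or a CCR7+Il12b+ sample (between 0.0655 and 0.0927) and in the fit on the compared groups (0.0717). The 1 gene that rose was H2-Ea, whose immature mean lay below background and which was at least 1.08-fold higher in CCR7+Il12b- and 1.02-fold higher in CCR7+Il12b+ samples. The latter call was lost on leaving out immature replicate 2, immature replicate 3 or CCR7+Il12b+ replicate 1 (adjusted p between 0.0603 and 0.121 in limma) and after quantile (0.0869) or loess normalization (0.149). H2-DMa, a chain of the peptide-exchange chaperone, fell against immature cells in both matured groups (-1.33 ± 0.19 and -2.78 ± 0.21, log2 with SE), as did Ciita, the class II transactivator (-0.996 ± 0.16 and -2.57 ± 0.17). H2-Oa, a chain of the inhibitor of that chaperone, fell in both (-0.57 ± 0.14 and -1.90 ± 0.16), in CCR7+Il12b- cells not without immature replicate 2 (adjusted p = 0.0555 in limma) or 3 (0.0608). Its partner H2-Ob fell in CCR7+Il12b+ cells (-1.92 ± 0.27). H2-DMa, Ciita and H2-Oa were also lower in CCR7+Il12b+ than in CCR7+Il12b- cells (-1.46 ± 0.21, -1.57 ± 0.17 and -1.33 ± 0.16). Marchf1, a ubiquitin ligase that removes class II from the surface, fell in both matured groups (-0.94 ± 0.18 and -1.53 ± 0.20). The H2-Ob call in CCR7+Il12b- cells (-0.81 ± 0.24) did not survive leaving out any 1 immature sample, nor CCR7+Il12b- replicate 2 or replicate 3 (adjusted p between 0.0506 and 0.0889 in limma). That between the matured groups (-1.12 ± 0.27) was lost on leaving out immature replicate 2, CCR7+Il12b- replicate 1, CCR7+Il12b- replicate 2 or a CCR7+Il12b+ sample (between 0.0523 and 0.223), after median centring (0.0507) and in the fit on the compared groups (0.0699).

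Genes that sort enzymes to lysosomes were mixed. Of 10, 3 rose and 2 fell in CCR7+Il12b- cells (beside 9.10% and 14.5% of all genes), 4 rose and 3 fell in CCR7+Il12b+ cells (beside 14.1% and 17.9%), and 0 differed in either direction between the matured groups (4 and 2 at an unadjusted p under 0.05 in limma), with medians of 0.16, 0.35 and 0.14. Gga3, a sorting adaptor, rose by 1.07 ± 0.12 (log2, SE) and 1.38 ± 0.14 against immature cells, and Gga2 by 0.45 ± 0.11 and 0.85 ± 0.13, the former not without immature replicate 3 (adjusted p = 0.0626 in limma). Igf2r, a mannose 6-phosphate receptor, fell in both (-0.61 ± 0.11 and -0.90 ± 0.13), as did Nagpa, which uncovers the mannose 6-phosphate tag (-0.75 ± 0.14 and -0.97 ± 0.16). Sppl2a, a membrane protease that cuts the remnant of the invariant chain, rose by 0.46 ± 0.10 and 0.78 ± 0.12.

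Lysosome regulators and acidification genes gave 3 rises in CCR7+Il12b- cells, 5 in CCR7+Il12b+ cells and 2 between the matured groups among 13. These are 23.1%, 38.5% and 15.4% of the list, beside 9.10%, 14.1% and 2.61% of all genes called higher. There were 0 falls in each (0 also at an unadjusted p), beside 14.5%, 17.9% and 4.47% of all genes called lower. A list of 13 genes limits what a count of 0 can say. List medians were 0.18, 0.36 and 0.23. Lamp1, the lysosomal membrane glycoprotein, rose by 1.62 ± 0.10 (log2, SE) and 2.15 ± 0.11, from 8.96, 9.16 and 9.12 in immature to 10.78, 10.62 and 10.70 in CCR7+Il12b- and 11.22 and 11.23 in CCR7+Il12b+ samples. The 3 groups did not overlap for Lamp1. Its difference between the matured groups (0.52 ± 0.11) was lost on leaving out CCR7+Il12b- replicate 2 or a CCR7+Il12b+ sample (adjusted p between 0.0760 and 0.0787 in limma) or in the fit on the compared groups (0.0572). Tfeb, a regulator of lysosomal genes, was 0.45 ± 0.11 higher in CCR7+Il12b- cells, though not without immature replicate 2 (0.0595). In CCR7+Il12b+ against immature cells Tfeb was not called, except after quantile or loess normalization. Its means were 6.73 in immature, 7.18 in CCR7+Il12b- and 6.92 in CCR7+Il12b+ samples. Its relative Tfe3 rose by 0.67 ± 0.14 in CCR7+Il12b+ cells, and the channel gene Mcoln1 by 0.79 ± 0.19, the latter not without CCR7+Il12b+ replicate 1 (0.0690). Atp6v1b2, a proton pump subunit, rose by 1.11 ± 0.16 in CCR7+Il12b+ cells. Its call in CCR7+Il12b- cells (0.47 ± 0.15) was lost on leaving out any 1 CCR7+Il12b- sample, immature replicate 1 or immature replicate 2 (adjusted p between 0.0754 and 0.124) and after median centring (0.0803). That between the matured groups (0.64 ± 0.16) was kept on leaving out immature replicate 1 or 3 and lost on leaving out each of the other samples (between 0.0600 and 0.223), after median centring (0.0505) and with array weights (0.0679).

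The phagosomal oxidase, which slows acidification in these cells, was measured through 5 genes. In CCR7+Il12b- cells 1 rose and 2 fell, beside 9.10% and 14.5% of all genes. In CCR7+Il12b+ cells 1 rose and 3 fell, beside 14.1% and 17.9%. Between the matured groups 3 were lower and 0 higher (0 also at an unadjusted p), beside 4.47% and 2.61%. With 5 genes such shares are coarse. List medians were -0.19, -1.45 and -1.18. Rac2 fell against immature cells in both matured groups (-1.18 ± 0.14 and -2.35 ± 0.16, log2 with SE). Cybb, the catalytic subunit, and Ncf4 fell in CCR7+Il12b+ cells (-1.45 ± 0.22 and -1.78 ± 0.16). Cybb, Ncf4 and Rac2 were lower in CCR7+Il12b+ than in CCR7+Il12b- cells (-1.26, -1.30 and -1.18), Cybb not without CCR7+Il12b+ replicate 1 (adjusted p = 0.0744 in limma). Ncf4 in CCR7+Il12b- cells (-0.47 ± 0.15) was lost on leaving out any 1 immature sample, CCR7+Il12b- replicate 2 or CCR7+Il12b- replicate 3 (between 0.0790 and 0.130), and likewise after quantile (0.0709) or loess normalization (0.0833). Cyba differed by 0.54 ± 0.17 in CCR7+Il12b- cells, not without immature replicate 1 or 2 or any 1 CCR7+Il12b- replicate (0.0509 to 0.128) or after median centring (0.0855). In CCR7+Il12b+ cells it differed by 0.59 ± 0.19, not without immature replicate 1 (0.0938) or CCR7+Il12b+ replicate 1 (0.241), after median centring (0.0662), with array weights (0.0865) or in the fit on the compared groups (0.0561).

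**Figure D3:**
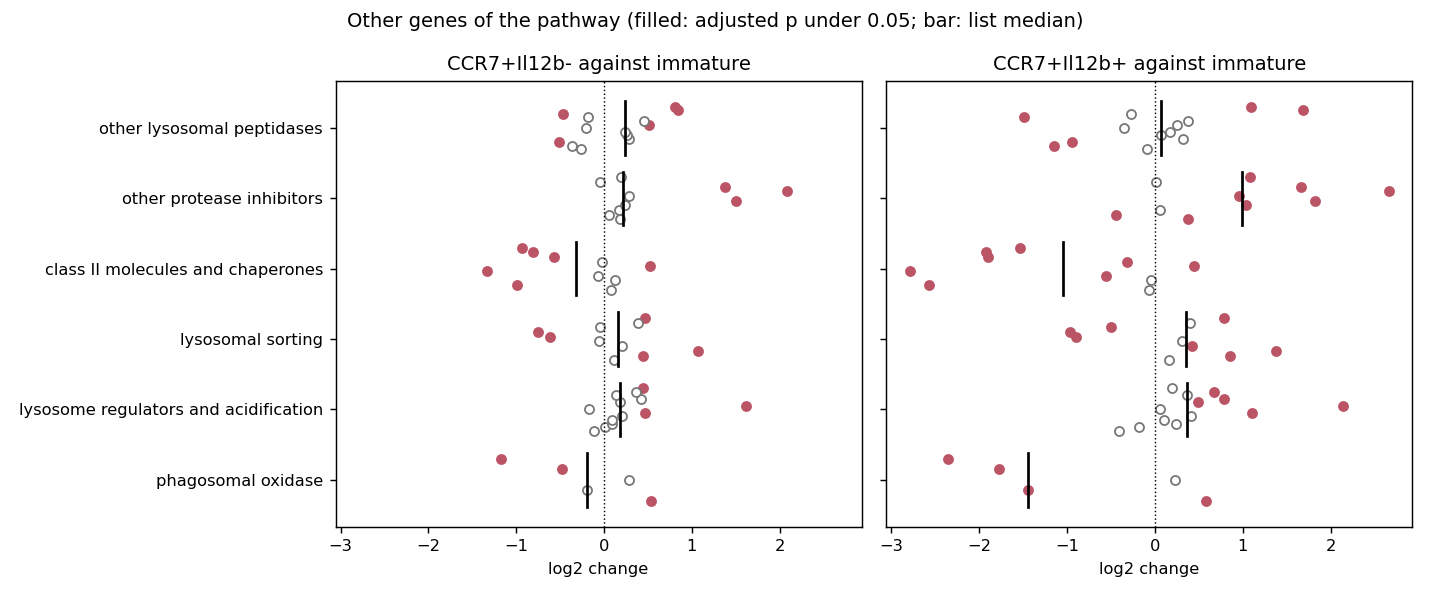
Log2 change against immature cells of each measured gene of the 6 pathway lists, in CCR7+Il12b- cells (left) and CCR7+Il12b+ cells (right), with filled points at an adjusted p under 0.05 and a bar at the list median. Class II genes have the medians -0.32 and -1.04, other protease inhibitors 0.22 and 0.997, and Lamp1 is the rightmost point of its list at 1.62 and 2.15.

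Lysosomal proteases are also abundant in macrophages and other myeloid cells, so markers of those cells are given beside the rises. The level of 16 macrophage markers summed on the linear scale was 3920 to 4899 in immature, 4813 to 6473 in CCR7+Il12b- and 4995 to 6575 in CCR7+Il12b+ samples, and 7, 10 and 9 of them were above background. Hmox1 was the highest of the 16 in every group, with means of 11.21, 11.26 and 11.52, and held a large part of each sum. Its values also spread within groups, from 10.94 to 11.47 in immature samples. C1qc, Cd163, Mertk, Fcgr1, Slc40a1 and Cd5l had means below background in every group. Of the 16, 4 rose and 1 fell in CCR7+Il12b- cells and 4 rose and 3 fell in CCR7+Il12b+ cells. The rises compare with 9.10% and 14.1% of all genes, and the falls, 6.25% and 18.8% of the list, with 14.5% and 17.9%. Spic and Vcam1 rose by 3.15 ± 0.22 and 2.57 ± 0.17 (log2, SE) in CCR7+Il12b- cells, and Cd68, a protein of lysosome membranes, fell in both matured groups (-1.38 ± 0.21 and -2.67 ± 0.23).

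The sum of 10 CD11b+ dendritic cell markers was 842 to 1233, then 2866 to 3164, then 3156 to 3255, with 9, 9 and 8 above background and Clec4a4 below it throughout. In CCR7+Il12b- cells 5 of these rose and 1 fell, with a list median of 0.74. In CCR7+Il12b+ cells 4 rose and 2 fell, with a list median of -0.01. The rises, 50% and 40% of the list, compare with 9.10% and 14.1% of all genes. The falls, 10% and 20%, compare with 14.5% and 17.9%. Tmem176a (2.84 ± 0.17 and 3.20 ± 0.19) and Tmem176b (2.25 ± 0.15 and 2.45 ± 0.17) rose most, and held 2032 to 2206 of the sum in CCR7+Il12b- and 2503 to 2639 in CCR7+Il12b+ samples. The sum of the other 8 markers was 543 to 742 in immature, 834 to 958 in CCR7+Il12b- and 617 to 654 in CCR7+Il12b+ samples. Cd209a fell in both (-1.02 ± 0.15 and -2.03 ± 0.17), and Itgam, which encodes CD11b, was not called (0.07 and -0.18). Monocyte markers went the other way, with sums of 3647 to 3998, 1211 to 1940 and 535 to 758 for 7 genes, of which 5, 5 and 3 were above background. Treml4 (means 10.61, 9.47 and 8.34) and Lyz2 (10.58, 9.12 and 7.47) were the highest of these in every group. The monocyte sums therefore mainly follow these genes. Plasmacytoid dendritic cell markers had sums of 1563 to 1672, 866 to 1055 and 822 to 832 for 8 genes. Sums were 433 to 521, 642 to 845 and 508 to 510 for 8 B cell markers, and 219 to 233, 218 to 258 and 180 to 203 for 7 T cell markers. They were 404 to 484, 255 to 370 and 175 to 196 for 8 NK cell markers, and 183 to 232, 213 to 250 and 223 to 231 for 8 neutrophil markers. Above background were 6, 6 and 6 B cell, 2, 3 and 2 T cell, 2, 3 and 2 NK cell and 2, 4 and 4 neutrophil markers. Many values in the last 3 lists thus lay below the mark. Ms4a1 was the highest B cell marker (means 6.99, 8.50 and 7.90). Klrd1 was the highest NK cell marker in immature (8.21) and CCR7+Il12b- cells (7.19), and stood at 4.81 in CCR7+Il12b+ cells. The part of macrophage and CD11b+ dendritic cell markers in the rises of Lgmn, Ifi30, Ctsz, Ctsh and Ctsd was not tested. These markers and proteases move with the same 3 groups.

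**Figure D4:**
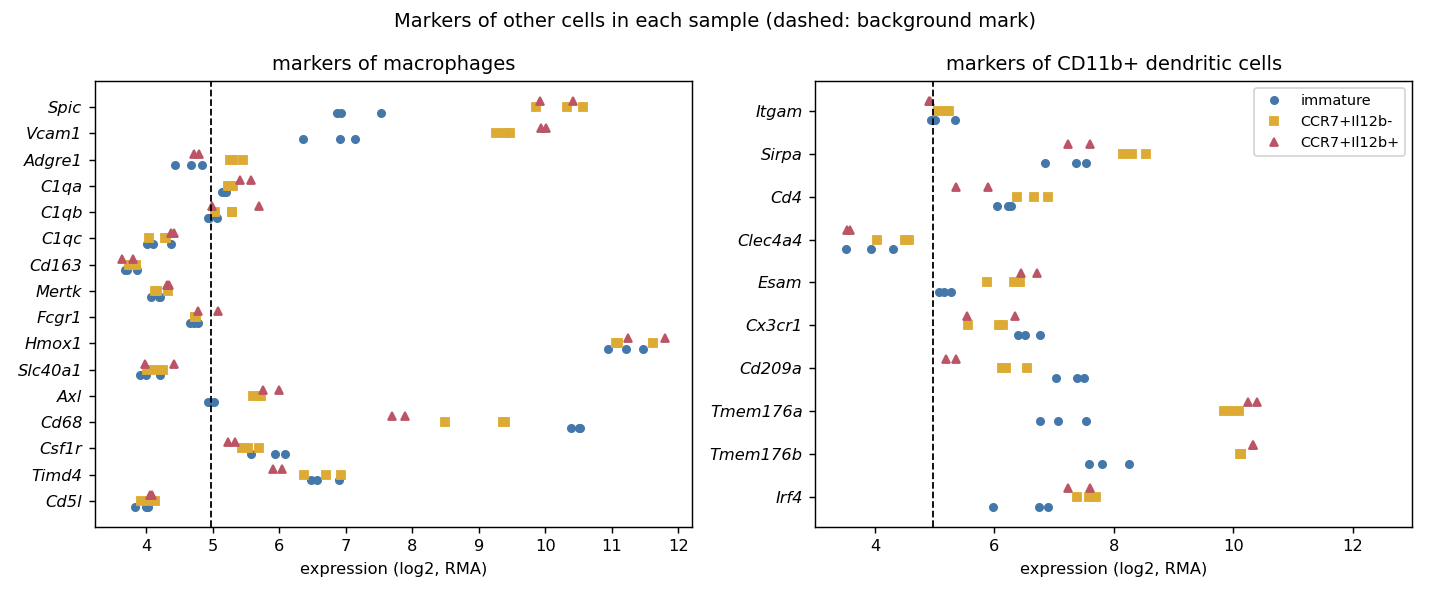
Expression (log2, RMA) in each sample of 16 macrophage markers (left) and 10 CD11b+ dendritic cell markers (right), with a dashed line at the background mark of 4.98. Spic, Vcam1, Tmem176a and Tmem176b are higher in all CCR7+ samples than in all immature samples, Cd68 is lower, and Cd163, Mertk, C1qc and Cd5l lie below the mark in all samples.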

How the data were processed

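RNA of 8 sorted samples, amplified and labelled with biotin per the labels' protocols, was hybridised to 8 arrays. The submitters' processing notes name the oligo package and RMA, from which the deposited log2 values per probe set come. The sources used here give no version, option or genome build. RMA brings the distributions of arrays close to each other, which hides any change in a cell's total RNA. The deposited values were still not fully equal, with array medians from 5.25 to 5.46. After quantile normalization the median change of all genes against immature cells went from 0.061 to 0.0035 in CCR7+Il12b- cells. In CCR7+Il12b+ cells it went from 0.093 to 0.030.

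Of 35556 rows, 21789 had 1 gene symbol in the platform annotation, 1621 had several and 12146 had none in the table used. For genes with several rows the row with the highest mean was kept, and no gene was removed for low values. All 19938 genes and all 8 samples entered 1 model with a mean per group in limma 3.58.1 (R 4.3.3), with 5 residual and 5.86 prior degrees of freedom, two-sided, with Benjamini-Hochberg adjustment over all genes and calls at an adjusted p under 0.05. The fit was tested on simulated data. The number of arrays limits the precision. A change with a group below the background mark is given as "at least", computed from mean log2 values in which the dim gene's value on an array is raised to the mark where it lies below.

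The genes, lists and tests were chosen with earlier results of these data known. Of each pathway list up to 4 called genes with the largest change per comparison are named. Genes named outside that rule (class II chains, marker genes) were chosen after their values were seen. Of 158 list entries 148 were measured as 1 symbol, and the others were not analysed here. Promoter windows came from RefSeq (GRCm38.p6). Alternatives were other normalizations, the mean of a gene's rows, a filter on dim genes, array weights, a fit on the compared groups, replicate blocks and leaving out each sample. Same-numbered samples did not deviate together (correlations from -0.17 to 0.22), so numbers were not taken as pairs.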

Additional observations from a re-analysis of the deposited data

How the results depend on the processing

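The log2 changes of the 10 genes gave 30 results, of which 21 kept direction and side of the threshold under all 17 alternatives. The exceptions were Lgmn and Ctsd between the matured groups, Ctsl in CCR7+Il12b+ against immature cells, and changes near 0 that took the other sign without being called. Of 90 results of other named genes 66 were unchanged in that sense. Members falling in CCR7+Il12b+ cells (2, Ctsl and Ctsc) numbered 1 after quantile or loess normalization, in the fit on the compared groups and with a fixed or random replicate block, and 1 to 2 with single samples left out. Members higher in CCR7+Il12b+ than in CCR7+Il12b- cells (1, Lgmn) numbered 2 after quantile, loess or median normalization or with dim genes left out, 0 with array weights, on the compared groups or with a fixed replicate block, and 0 to 2 with single samples left out. In each of these the cause was not tested. With the fixed replicate block the adjusted p was 0.0698 for Ctsl and 0.0762 for Lgmn. The 5 pathway genes higher in CCR7+Il12b+ than in CCR7+Il12b- cells numbered 2 on the compared groups or with the fixed replicate block and 1 to 5 with samples left out, and the 11 lower in CCR7+Il12b- than in immature cells numbered 6 to 11. The labels share replicate numbers without saying whether these pair samples. The fixed replicate block also ended the calls of Cyba against immature cells in both matured groups (adjusted p = 0.0675 and 0.0524), of Atp6v1b2 in CCR7+Il12b- cells (0.0563) and between the matured groups (0.0541), of Serpinb6a (0.0622), Lamp1 (0.0568) and H2-Ab1 (0.0502) between the matured groups and of H2-Eb1 (0.0948) and H2-Ea (0.0622) in CCR7+Il12b+ cells. The random block ended those of Ctse in CCR7+Il12b- cells (0.0548), H2-Eb1 in CCR7+Il12b+ cells (0.0583) and Atp6v1b2 between the matured groups (0.0505).

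Sign changes of uncalled values were these. In CCR7+Il12b- against immature cells Cst3 was -0.0039 after quantile and -0.046 after loess normalization and -0.047 after median centring. With single samples left out it ranged from -0.015 to 0.028, and was -0.013 without immature replicate 1. Ctss was -0.014 after median centring, and with single samples left out it ranged from -0.011 to 0.082, with -0.0019 without CCR7+Il12b- replicate 1. Ctsc was -0.044 after median centring and -0.0041 with array weights, and ranged from -0.035 to 0.054 with single samples left out. In CCR7+Il12b+ against immature cells Ctsb was 0.12 after loess and ranged from -0.063 to 0.029 with single samples left out, with 0.0040 without CCR7+Il12b+ replicate 2. Cst3 ranged there from -0.041 to 0.00035, and H2-Aa from -0.111 to 0.0316. Between the matured groups Cst3 was 0.021 after loess, and H2-Ea ranged from -0.198 to 0.0276 with single samples left out. Leaving out a CCR7+Il12b+ sample leaves 1, which is assumed to vary like the other groups.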
